A study of Mus musculus with 15 samples.

Results

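The BCL2 family survival genes described here were the 10 rows of the deposited count table with the symbols Bcl2, Bcl2l1, Mcl1, Bcl2a1b, Bcl2l11, Bbc3, Pmaip1, Bad, Bax and Bak1, of 53762 genes in all. They were chosen by symbol and not by any measured value, and all 10 passed the filter on low counts. The 15 RNA libraries came from mature mouse thymocytes, 3 in each of 5 groups, all on a C57BL/6 background and all taken from irradiated hosts that had received a mixture of mutant and wild-type marrow. The sort gate required low CD44, CD24 and CD69 and a high T cell receptor beta chain. Thpok-RKF+ CD4+CD8+ cells carried Thpok fl/fl, Runx3 fl/dYFP, Cd4-Cre+ and Thpok-RKF+, were CD45.2+ and came from B2m-/- hosts. Thpok-RKF- CD4+CD8+ cells and Thpok-RKF- CD8 single-positive (SP) cells had the same alleles and hosts but were Thpok-RKF-. The labels do not explain Thpok-RKF. Wild-type (WT) CD4 SP cells were CD45.1+CD45.2+ competitors from B2m-/- hosts, which lack surface MHC class I. WT CD8 SP cells were CD45.1+CD45.2+ competitors from I-Ab-/- hosts, which lack MHC class II. In any comparison with WT CD8 SP the host therefore changed together with the cells, and the contributions of host and cell type cannot be told apart. In comparisons of mutant cells with WT CD4 SP cells the host was shared. Genotype and sort gate changed together there and cannot be told apart either. Cd4-Cre is driven by Cd4 regulatory sequence and deletes floxed DNA in developing T cells, so marrow-derived cells outside the T lineage keep the alleles.

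BCL2 family proteins decide whether the outer mitochondrial membrane is opened, the step that releases cytochrome c and commits a cell to apoptosis. Bax and Bak1 are the effectors that form the pores. Bcl2, Bcl-xL (the product of Bcl2l1), Mcl1 and A1 (the product of the Bcl2a1 genes) hold them in check, and the BH3-only proteins Bim (Bcl2l11), Puma (Bbc3), Noxa (Pmaip1) and Bad bind these guardians and release the effectors. In the thymus Bim is best known for the death of self-reactive thymocytes, Bcl-xL for the survival of CD4+CD8+ cells, and Bcl2 for the survival of mature single-positive cells, where its level follows interleukin-7 receptor signalling.

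Promoter windows are shown for the 4 members with the most frequent changes, because Bcl2l11 and Mcl1 moved one way and Bax the other between Thpok-RKF- and WT CD4 SP cells, while Bcl2 was highest in WT CD8 SP cells. Each runs from 250 bases before to 50 bases after a transcription start site, 5′ to 3′ on the strand of the gene, from RefSeq on GRCm38.p6. Such windows were found for 9 of the 10 members, 15 in all. Capitals mark a match to the FOXO motif TGTTTAC on either strand, here its reverse complement GTAAACA.
Bcl2l11, chr2:128125788-128126087, plus strand: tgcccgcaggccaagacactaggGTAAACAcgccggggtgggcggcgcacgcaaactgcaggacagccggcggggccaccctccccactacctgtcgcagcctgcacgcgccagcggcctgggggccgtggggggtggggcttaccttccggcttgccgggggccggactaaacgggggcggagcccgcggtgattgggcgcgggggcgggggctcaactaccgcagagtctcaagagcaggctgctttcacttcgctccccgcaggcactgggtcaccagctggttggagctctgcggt
Mcl1, chr3:95658471-95658770, plus strand: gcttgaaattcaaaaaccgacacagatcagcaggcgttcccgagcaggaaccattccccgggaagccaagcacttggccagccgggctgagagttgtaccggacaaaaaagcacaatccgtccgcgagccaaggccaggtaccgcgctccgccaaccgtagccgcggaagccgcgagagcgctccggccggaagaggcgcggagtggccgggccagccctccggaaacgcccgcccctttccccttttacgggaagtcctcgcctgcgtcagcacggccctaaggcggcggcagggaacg
Bcl2, chr1:106714241-106714540, minus strand: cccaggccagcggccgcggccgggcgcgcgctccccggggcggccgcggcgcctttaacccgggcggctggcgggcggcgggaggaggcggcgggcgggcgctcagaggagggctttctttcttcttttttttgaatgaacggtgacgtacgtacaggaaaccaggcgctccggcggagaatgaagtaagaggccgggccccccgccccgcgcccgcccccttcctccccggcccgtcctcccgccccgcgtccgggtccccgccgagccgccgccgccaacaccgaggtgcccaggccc
Bax, chr7:45466849-45467148, minus strand: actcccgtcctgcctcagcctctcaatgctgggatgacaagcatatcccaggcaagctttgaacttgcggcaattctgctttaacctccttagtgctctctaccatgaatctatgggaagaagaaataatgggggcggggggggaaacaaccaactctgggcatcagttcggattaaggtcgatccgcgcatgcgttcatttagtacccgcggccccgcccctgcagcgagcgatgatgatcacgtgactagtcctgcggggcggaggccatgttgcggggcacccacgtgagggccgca
The letters of 3 motifs were searched on both strands of all 32851 RefSeq windows of 300 bases, TGTTTAC for FOXO, TGTGGT for RUNX and TTCNNNGAA for STAT, and no match of one overlapped another in the members. The FOXO letters occurred in 3.6% of all windows, in the printed Bcl2l11 window (start of the match 227 bases before the start site) and in 1 of the 3 Bbc3 windows (167 bases before it). RefSeq has a second start for Bcl2l11, and its window, chr2:128127325-128127624 with a GC content of 74.0%, held no FOXO match. The RUNX letters occurred in 16.8% of all windows and in that of Bak1, 221 bases before the start site. The STAT letters occurred in 8.3% of all windows and in none of the 15 of the members. The printed windows of Mcl1, Bcl2 and Bax held none of the 3 motifs. GC content was 71.0% in the printed Bcl2l11 window, 65.7% in that of Mcl1, 76.0% in that of Bcl2 and 57.3% in that of Bax, against a median of 52.7% over all windows.

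The libraries held 37311823 to 48607260 gene counts. Whether the 3 libraries of a group came from separate animals is not in the labels, and the p-values therefore measure the spread among libraries, which may be technical. Zbtb7b, the gene of Thpok, averaged 801 ± 28.9 CPM in Thpok-RKF+ CD4+CD8+ cells, 2.46 ± 0.694 in Thpok-RKF- CD4+CD8+ cells, 2.18 ± 0.301 in Thpok-RKF- CD8 SP cells, 56.8 ± 26.6 in WT CD4 SP cells and 0.236 ± 0.142 in WT CD8 SP cells (SD, n = 3). Runx3 averaged 305 ± 49.1, 279 ± 14.7 and 267 ± 34.4 CPM in the same 3 mutant groups, 28.8 ± 4.95 CPM in WT CD4 SP cells and 206 ± 13.2 CPM in WT CD8 SP cells; a count over the whole gene does not measure the floxed part alone. Cd3e lay at group means of 608 to 785 CPM in all 5 groups. Of the B cell markers, Ms4a1 had no count in any library and Pax5 at most 0.0864 CPM, whereas Ighm lay at 347 to 1092 CPM over the libraries. The list of 7 summed to 362 to 760 CPM in Thpok-RKF+ CD4+CD8+, 446 to 698 in Thpok-RKF- CD4+CD8+, 724 to 993 in Thpok-RKF- CD8 SP, 544 to 809 in WT CD4 SP and 843 to 1190 in WT CD8 SP libraries. Of its 4 tested genes, Cd79b (1.24 against 41.05 CPM) and Ighd (0.216 against 45.3 CPM) fell in WT CD4 SP against WT CD8 SP cells, and their part in the member differences was not tested. The 5 libraries numbered 1 stood apart from those numbered 2 and 3, with 1543 genes (9.32%) past the threshold for that number. Over genes, the quintile with the longest exons stood 0.34 log2 units below that with the shortest in WT CD4 SP library 3, and the same difference was -0.198 to 0.145 in the other 14 libraries. Calls that were lost or gained without the libraries numbered 1 are given beside each member.

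Per kilobase of exon, Mcl1 was the most abundant member in every group, with means of 126, 181 and 143 CPM per kb in the Thpok-RKF+ CD4+CD8+ group, the Thpok-RKF- CD4+CD8+ group and Thpok-RKF- CD8 SP cells, 74.7 in WT CD4 SP cells and 122 in WT CD8 SP cells. Bax came next at 35.1 to 60.0 CPM per kb and then Bcl2 at 18.1 to 35.6. Bbc3 (8.87 to 15.8), Bad (7.75 to 10.9), Bcl2l1 (6.64 to 9.86) and Bcl2l11 (3.00 to 9.05) formed a middle tier. Pmaip1 (0.263 to 1.56), Bcl2a1b (0.380 to 1.16) and Bak1 (0.126 to 0.459) were near the bottom of the measurable range. The lengths are those of GENCODE M21 on GRCm38, not of the annotation behind the counts, so the levels per kb are approximate.

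**Figure D1:**
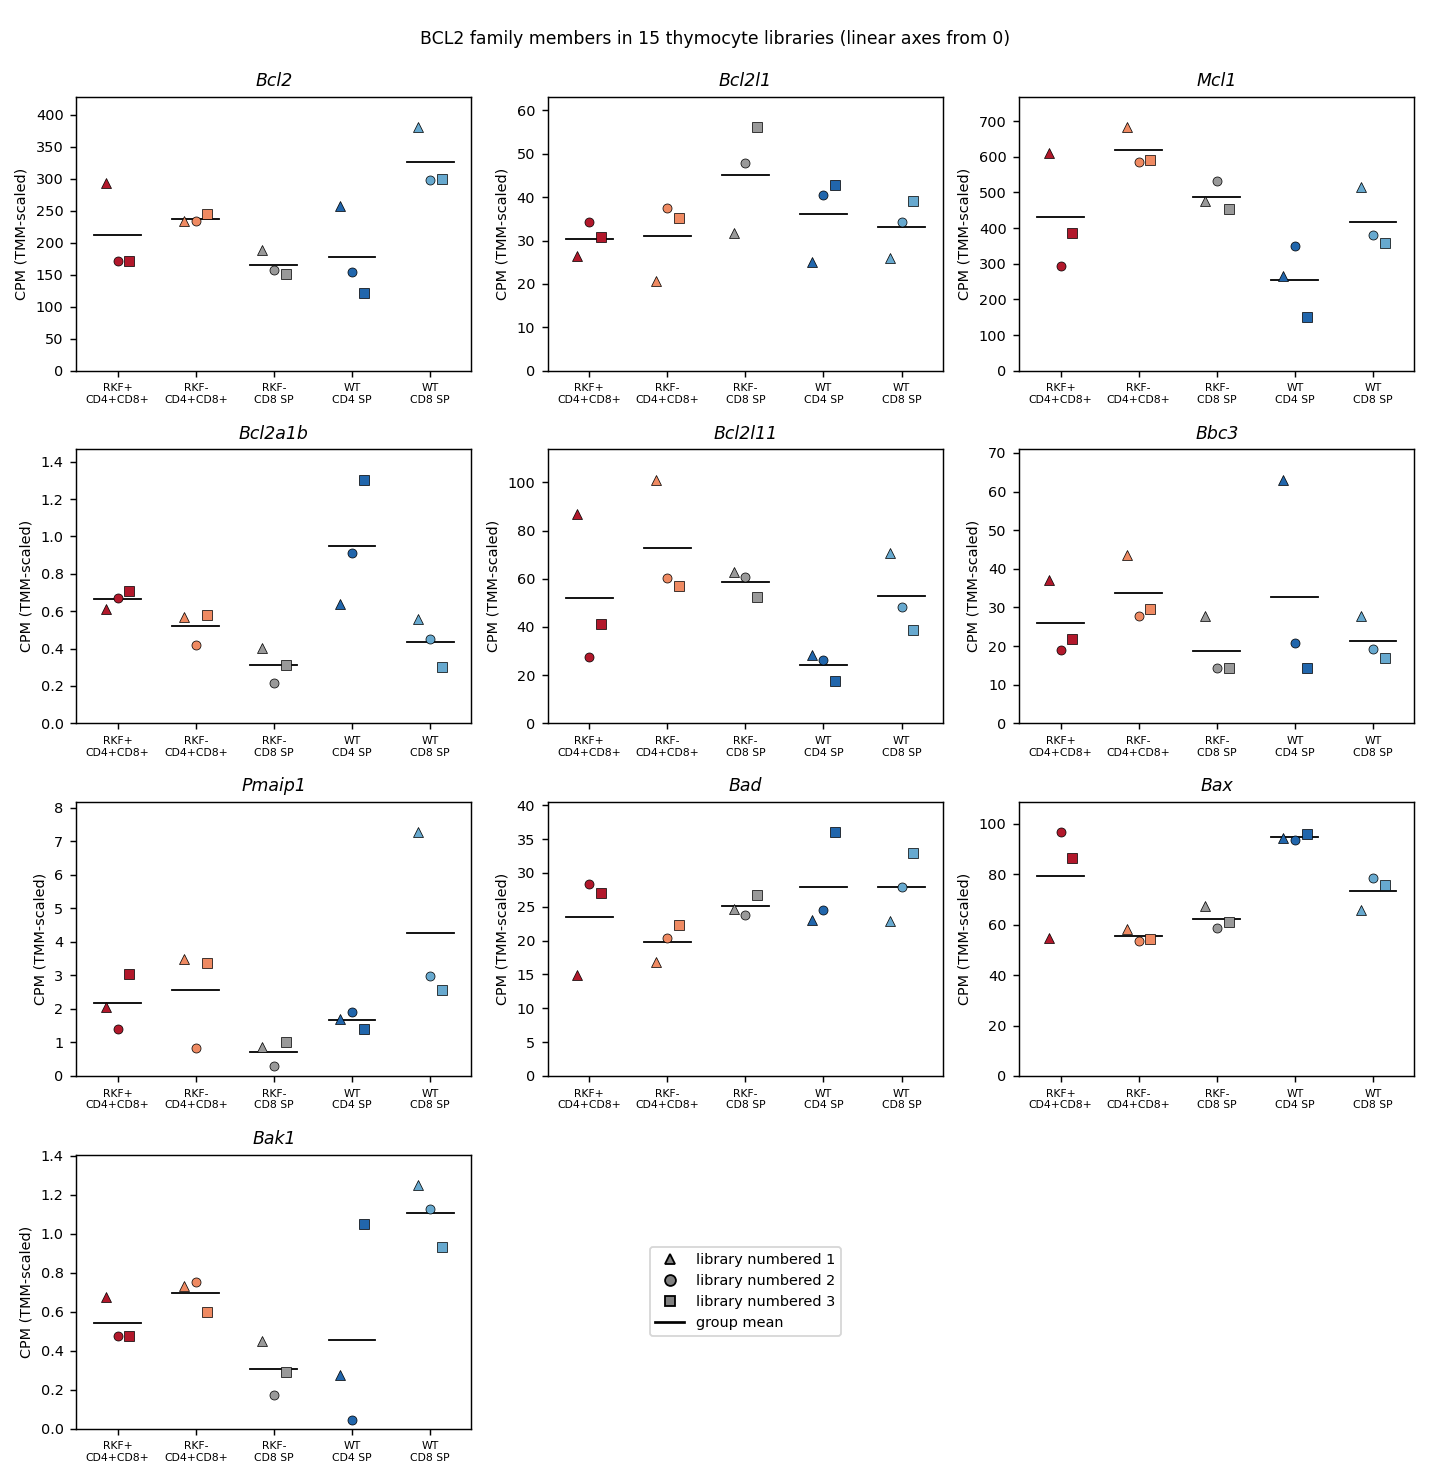
Level of each BCL2 family member in CPM with TMM-scaled library sizes (linear axis from 0) in the 3 libraries of each group, with the group mean as a line and a symbol for the library number. Bcl2 was highest in WT CD8 SP cells (298 to 381 CPM), and Mcl1 and Bcl2l11 were lowest in WT CD4 SP cells (means of 255 and 24.1 CPM).

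How many members changed depended on the comparison, with a threshold of 0.05 on the adjusted p of the edgeR quasi-likelihood test. In WT CD4 SP cells, set against WT CD8 SP cells, 2 of 10 members passed, both lower, where 18% of all tested genes passed and 10.3% did so as lower. Against WT CD4 SP cells, 3 of 10 passed in Thpok-RKF- CD4+CD8+ cells (17.6% of all genes), 4 of 10 in Thpok-RKF- CD8 SP cells (17.7%) and 0 of 10 in Thpok-RKF+ CD4+CD8+ cells (7.26%). Against WT CD8 SP cells, 2 of 10 passed in Thpok-RKF- CD8 SP cells, both lower, where 18.4% of all genes passed and 10.6% did so as lower. No member passed in Thpok-RKF- CD4+CD8+ against Thpok-RKF- CD8 SP cells (2.44% of all genes) or in Thpok-RKF+ CD4+CD8+ cells against their Thpok-RKF- counterparts (0.961%). No test of the 10 members as a list was made. The 3 comparisons with WT CD4 SP cells use the same 3 WT libraries, and those with WT CD8 SP cells share theirs, so the comparisons are not independent of each other. In sorted bulk cells, a smaller share of cells that express a gene and less RNA per cell cannot be told apart.

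**Figure D2:**
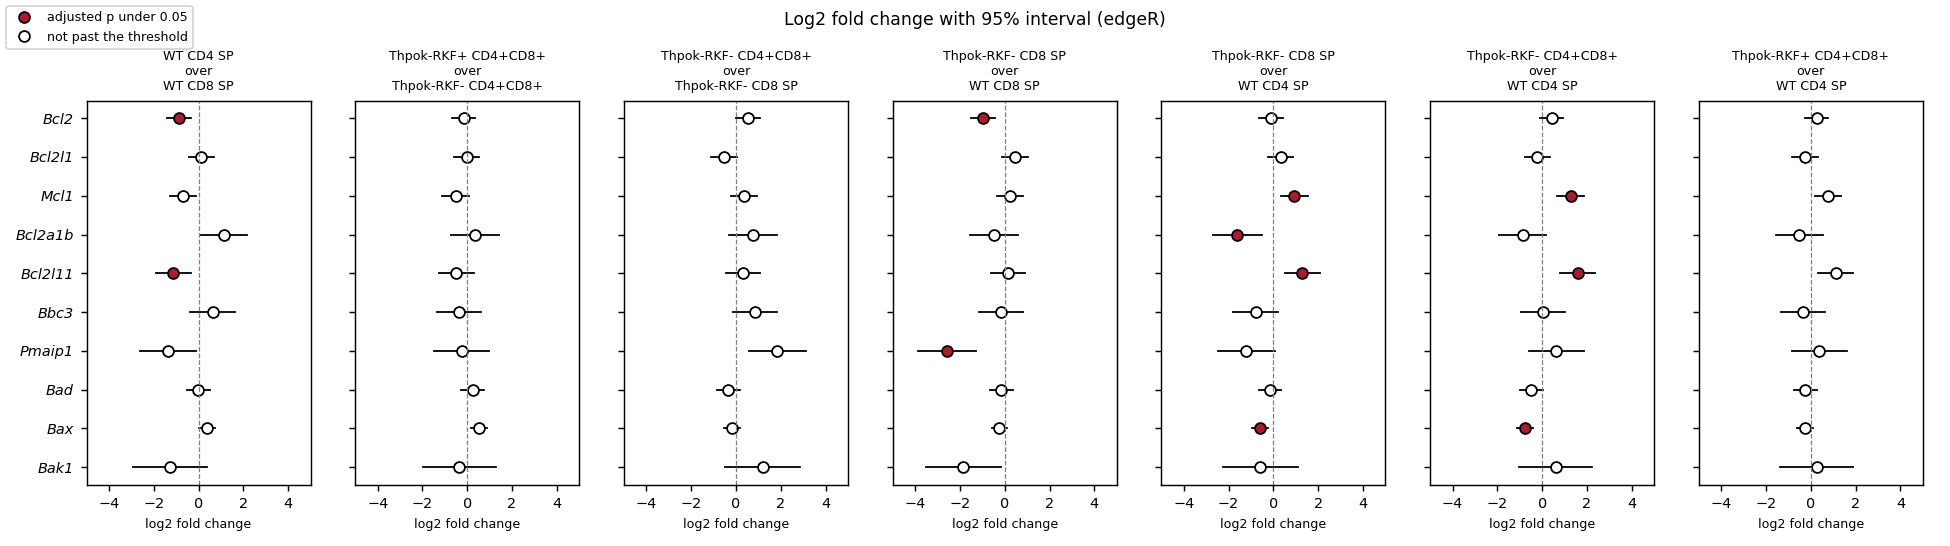
Log2 fold change of each member (first-named group over the second) with its 95% interval in 7 comparisons. Filled points passed an adjusted p of 0.05: Mcl1 (1.28) and Bcl2l11 (1.60) were higher and Bax (-0.77) was lower in Thpok-RKF- CD4+CD8+ than in WT CD4 SP cells, and Bcl2 was lower in WT CD4 SP (-0.88) and in Thpok-RKF- CD8 SP cells (-0.98) than in WT CD8 SP cells.

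Of the guardians, Bcl2 was highest in WT CD8 SP cells. These were tested against WT CD4 SP and Thpok-RKF- CD8 SP cells, and not against either CD4+CD8+ group. The libraries held 293, 172 and 171 CPM in the Thpok-RKF+ CD4+CD8+ group, 234, 234 and 245.5 in Thpok-RKF- CD4+CD8+, 188, 158 and 151 in Thpok-RKF- CD8 SP, 258, 154 and 122 in WT CD4 SP, and 381, 298 and 301 in WT CD8 SP. Each WT CD8 SP library was above all 12 others, and the means of the next 4 groups, in the order Thpok-RKF- CD4+CD8+, then Thpok-RKF+ CD4+CD8+, then WT CD4 SP and Thpok-RKF- CD8 SP, overlapped with their neighbours in that order. Bcl2 fell by 0.88 ± 0.25 (SE) on the log2 scale in WT CD4 SP against WT CD8 SP cells (1.84-fold lower, adjusted p = 0.0244). It fell by 0.98 ± 0.25 in Thpok-RKF- CD8 SP against WT CD8 SP cells (1.97-fold lower, adjusted p = 0.0126). The WT difference missed the threshold without WT CD4 SP replicate 2 (-0.76, adjusted p = 0.0933), WT CD4 SP replicate 3 (-0.63, 0.114) or WT CD8 SP replicate 1 (-0.75, 0.0872) and with only the groups compared in the fit (-0.83, 0.064), with adjusted p between 0.000358 and 0.114 over all 14 alternatives. The mutant difference missed it only without Thpok-RKF- CD8 SP replicate 3 (-0.92, adjusted p = 0.0525, the highest of its 14 alternatives, the lowest being 0.000328). The cell cycle list moved the same way: all 8 of its genes, Mki67 among them, were lower in each of these comparisons, with summed levels of 512 to 692 CPM in WT CD4 SP and 424 to 491 CPM in Thpok-RKF- CD8 SP cells, against 1515 to 2252 CPM in WT CD8 SP cells. The part of dividing cells in the Bcl2 and Pmaip1 differences was not tested.

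The difference in Bcl2 between CD4-bearing cells and CD8 SP cells had opposite signs in Thpok-RKF- and WT cells. Among Thpok-RKF- cells the CD4+CD8+ libraries did not overlap the CD8 SP libraries and were higher by 0.52 ± 0.25 on the log2 scale, which did not pass the test (adjusted p = 0.467). With only the groups compared in the fit it passed (0.52, 0.0343), as it did when the 5 libraries numbered 1 were left out (0.64, 0.0206). Without those libraries Bcl2 was also higher in Thpok-RKF- CD4+CD8+ than in WT CD4 SP cells (0.80, adjusted p = 0.0024, against 0.42 with them, which did not pass). Among WT cells the CD4 SP libraries were lower, as above. The difference between these differences was 1.40 ± 0.35 (95% interval 0.65 to 2.15, adjusted p = 0.016), and it passed under all 20 alternatives (adjusted p from 0.000235 to 0.0416). In that test 2 of 10 members passed, where 14.3% of all genes did. All 8 cell cycle genes passed in it as rises too, and their part was not tested. Bcl2l11 (1.44 with all libraries) did not pass but did with no filter on low counts, DESeq2, only the compared groups or the replicate block (adjusted p = 0.00532, 0.0261, 0.0205 and 0.0164), and Mcl1 (1.05) with no filter or DESeq2 (0.0136 and 0.0437). Bax passed with only the compared groups (-0.56, 0.0148) and Bak1 with limma (0.97, 0.0275).

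Mcl1, a short-lived guardian that T cells need at every stage, was higher in both Thpok-RKF- groups than in WT CD4 SP cells. Its levels were 611, 293 and 387 CPM in Thpok-RKF+ CD4+CD8+, 683, 586 and 590.0 in Thpok-RKF- CD4+CD8+, 476, 532 and 454 in Thpok-RKF- CD8 SP, 264.5, 349.6 and 152 in WT CD4 SP, and 514, 379 and 357 in WT CD8 SP libraries. All 6 Thpok-RKF- libraries lay above all 3 WT CD4 SP libraries, whereas the Thpok-RKF+ libraries overlapped both. Mcl1 rose by 1.28 ± 0.28 in Thpok-RKF- CD4+CD8+ against WT CD4 SP cells (2.43-fold, adjusted p = 0.00737) and passed under all 14 alternatives (adjusted p from 1.4e-05 to 0.0286). It also rose by 0.93 ± 0.28 in Thpok-RKF- CD8 SP against WT CD4 SP cells (1.91-fold, adjusted p = 0.0312). That smaller difference passed in 8 of 14 alternatives (adjusted p from 0.000905 to 0.133): it was 0.94 without WT CD4 SP replicate 1 (0.0726), 0.63 without WT CD4 SP replicate 3 (0.133), and 0.93, 0.87 and 0.98 without Thpok-RKF- CD8 SP replicates 1, 2 and 3 (0.067, 0.0983 and 0.0602), and 0.96 without the 5 libraries numbered 1 (0.0609). In Thpok-RKF+ CD4+CD8+ against WT CD4 SP cells Mcl1 differed by 0.75 ± 0.28 (adjusted p = 0.127), which passed without WT CD4 SP replicate 2 (1.04, 0.0472) and with no filter on low counts (0.75, 0.0199). Set against WT CD8 SP, it differed in WT CD4 SP cells by -0.71 ± 0.28 (adjusted p = 0.0921), which likewise passed in both ways (-0.98, 0.0329, and -0.71, 0.0165). At the same sort gate, in Thpok-RKF- CD8 SP against WT CD8 SP cells, Mcl1 differed by only 0.23 ± 0.27 (adjusted p = 0.656). That difference passed in 0 of 14 alternatives.

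Bcl2l1 varied little between groups. Its levels by library were 26.4, 34.2 and 30.7 CPM in Thpok-RKF+ CD4+CD8+, 20.8, 37.5 and 35.2 in Thpok-RKF- CD4+CD8+, 31.7, 47.8 and 56.1 in Thpok-RKF- CD8 SP, 25.1, 40.4 and 42.9 in WT CD4 SP, and 26.0, 34.3 and 39.2 in WT CD8 SP libraries. Every group overlapped its neighbours in the order of means, and no comparison passed with all libraries. The largest of the 7 differences was -0.54 ± 0.27 on the log2 scale in Thpok-RKF- CD4+CD8+ against Thpok-RKF- CD8 SP cells (95% interval -1.11 to 0.03, adjusted p = 0.501). In each of the 5 groups the library numbered 1 was the lowest. Without these libraries Bcl2l1 was higher in Thpok-RKF- CD8 SP than in WT CD8 SP cells (0.52, adjusted p = 0.0274), as it was with the replicate number as a block (0.43, 0.0369), against 0.45 (0.296) with all libraries. Its difference of differences, -0.66, passed in the same ways (-0.72, 0.0401, and -0.65, 0.0329).

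Bcl2a1b, 1 of several near-identical mouse genes for A1, was counted only 10 to 57 times per library. The counts were 29, 31 and 30 in Thpok-RKF+ CD4+CD8+, 28, 19 and 26 in Thpok-RKF- CD4+CD8+, 18, 10 and 14 in Thpok-RKF- CD8 SP, 28, 44 and 57 in WT CD4 SP, and 21, 18 and 13 in WT CD8 SP libraries. The lowest WT CD4 SP library was above all Thpok-RKF- CD8 SP libraries, and the fall by 1.61 ± 0.50 on the log2 scale there passed the test (3.04-fold lower in Thpok-RKF- CD8 SP, adjusted p = 0.0403). This call is uncertain, because 56.3% of the 101-base stretches of Bcl2a1b also occur in Bcl2a1a, Bcl2a1d or Gm29094, and it was lost under 7 of its 15 alternatives (adjusted p from 0.000606 to 0.254). Leaving out WT CD4 SP replicate 2 or 3 gave -1.65 (0.0635) and -1.35 (0.144), and leaving out Thpok-RKF- CD8 SP replicate 1, 2 or 3 gave -1.85 (0.0551), -1.40 (0.147) and -1.61 (0.102). Bcl2a1d, with more reads, showed 1.10, 2.85 and 3.13 CPM in Thpok-RKF+ CD4+CD8+, 2.20, 1.33 and 1.73 in Thpok-RKF- CD4+CD8+, 0.921, 1.25 and 1.61 in Thpok-RKF- CD8 SP, 3.98, 5.88 and 7.91 in WT CD4 SP, and 2.18, 1.88 and 1.87 in WT CD8 SP libraries. Every WT CD4 SP library exceeded all 12 others. Bcl2a1d was lower by 2.23 ± 0.415 on the log2 scale in Thpok-RKF- CD8 SP than in WT CD4 SP cells (adjusted p = 0.00198). Of the 101-base stretches of Bcl2a1d, 54.0% also occur in other genes. Summed over Bcl2a1a, Bcl2a1b and Bcl2a1d, the level was 1.51 log2 units higher in WT CD4 SP than in WT CD8 SP cells (adjusted p = 0.00539) and 1.60 lower in Thpok-RKF- CD4+CD8+ than in WT CD4 SP cells (log2 difference -1.60, adjusted p = 0.00551). A1 is also a myeloid gene, and the 8 myeloid markers summed to 32.6 CPM in WT CD4 SP library 1 and 37.8 in Thpok-RKF+ CD4+CD8+ library 1, but to 6.53 CPM or less in the other 13 libraries. Bcl2a1d was lowest of its group in both of these libraries, while Bcl2a1a was at 0.517 CPM per kb in Thpok-RKF+ CD4+CD8+ library 1 and at 0 to 0.0528 in the other 14. The part of myeloid RNA in the Bcl2a1 values was not tested.

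Of the BH3-only genes, Bcl2l11 was lowest in WT CD4 SP cells. Libraries had 86.9, 27.7 and 41.2 CPM in Thpok-RKF+ CD4+CD8+, 101, 60.15 and 56.8 in Thpok-RKF- CD4+CD8+, 62.8, 60.7 and 52.3 in Thpok-RKF- CD8 SP, 28.2, 26.5 and 17.5 in WT CD4 SP, and 70.9, 48.4 and 38.8 in WT CD8 SP libraries. The WT CD4 SP libraries were below all others except Thpok-RKF+ CD4+CD8+ library 2, which lay just under the highest of them. Bcl2l11 rose by 1.60 ± 0.37 in Thpok-RKF- CD4+CD8+ (3.02-fold, adjusted p = 0.00984) and by 1.28 ± 0.36 in Thpok-RKF- CD8 SP cells (2.43-fold, adjusted p = 0.0254) against WT CD4 SP cells. The first difference held in 13 of 14 alternatives (adjusted p from 1.41e-05 to 0.0506) and missed the threshold without WT CD4 SP replicate 3 (1.38, 0.0506). The second held in 11 of 14 (0.000263 to 0.115) and missed it without WT CD4 SP replicate 3 (1.07, 0.115) or Thpok-RKF- CD8 SP replicate 1 (1.22, 0.0642) or 2 (1.26, 0.0698). At the same sort gate, in Thpok-RKF- CD8 SP against WT CD8 SP cells, Bcl2l11 differed by only 0.15 ± 0.36 (adjusted p = 0.836). That difference passed in 0 of 14 alternatives.

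Among WT cells Bcl2l11 fell by 1.13 ± 0.36 in CD4 SP against CD8 SP cells (2.19-fold lower, adjusted p = 0.0434). This call rested on nearly the whole set of libraries: the difference was -1.23, -1.18 and -0.91 without WT CD4 SP replicates 1, 2 and 3 (adjusted p = 0.0714, 0.0776 and 0.163) and -0.86 and -1.19 without WT CD8 SP replicates 1 and 2 (0.165 and 0.0779), and adjusted p ran from 0.00142 to 0.165 over 14 alternatives. In Thpok-RKF+ CD4+CD8+ against WT CD4 SP cells Bcl2l11 differed by 1.11 ± 0.36 (95% interval 0.33 to 1.88, adjusted p = 0.0838). That difference passed without Thpok-RKF+ CD4+CD8+ replicate 2 (1.40, 0.0216), with DESeq2 (1.11, 0.0192), with the replicate number as a block (1.02, 0.0197) and with no filter on low counts (1.11, 0.00361). Regulatory T cell markers reached their highest sum over 6 genes in the same WT CD4 SP libraries, at 312 to 405 CPM. The sums overlapped those of Thpok-RKF- CD4+CD8+ libraries, at 249 to 346 CPM. These markers summed to 210 to 272 CPM in Thpok-RKF+ CD4+CD8+, 142 to 215.5 in Thpok-RKF- CD8 SP and 138 to 161 in WT CD8 SP libraries. Their part in the Bcl2l11, Mcl1 and Bcl2a1 differences was not tested.

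Pmaip1, whose product Noxa binds mainly Mcl1 and A1, was a low gene with 14 to 273 counts per library. Levels were 2.05, 1.40 and 3.03 CPM in Thpok-RKF+ CD4+CD8+, 3.50, 0.842 and 3.38 in Thpok-RKF- CD4+CD8+, 0.853, 0.303 and 1.00 in Thpok-RKF- CD8 SP, 1.69, 1.90 and 1.395 in WT CD4 SP, and 7.26, 2.99 and 2.565 in WT CD8 SP libraries. The Thpok-RKF- CD8 SP libraries were below both WT groups without overlap. Pmaip1 fell by 2.56 ± 0.61 on the log2 scale in Thpok-RKF- CD8 SP against WT CD8 SP cells (5.91-fold lower, adjusted p = 0.00782), and this held in 13 of 14 alternatives (adjusted p from 0.000271 to 0.0978). Without the 5 libraries numbered 1 it was -2.06 (adjusted p = 0.0978). In Thpok-RKF- CD4+CD8+ against Thpok-RKF- CD8 SP cells Pmaip1 differed by 1.84 ± 0.59 (95% interval 0.57 to 3.11, adjusted p = 0.164; 1.83, 0.0488, with DESeq2). The WT CD4 SP cells differed from WT CD8 SP cells by -1.36 ± 0.58 (95% interval -2.59 to -0.12, adjusted p = 0.125). The difference between these differences was 3.19 ± 0.83 (95% interval 1.42 to 4.96, adjusted p = 0.0191). It passed in 18 of 20 alternatives (adjusted p from 0.00182 to 0.181) and missed the threshold without WT CD8 SP replicate 1 (2.57, 0.0551) and without the 5 libraries numbered 1 (2.41, 0.181).

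The sum over 8 immature thymocyte genes was highest in the Thpok-RKF- CD8 SP group, through Dntt, the terminal transferase gene. The list summed to 133 to 223 CPM in Thpok-RKF- CD8 SP libraries, 60.7 to 73.4 CPM in Thpok-RKF- CD4+CD8+ libraries and 35.5 to 69.0 CPM in Thpok-RKF+ CD4+CD8+ libraries, against 25.2 to 40.8 CPM in WT CD4 SP and 37.2 to 41.5 CPM in WT CD8 SP libraries. Dntt alone had 107 to 197 CPM in Thpok-RKF- CD8 SP libraries. Rag1 averaged 4.17 CPM in Thpok-RKF- CD4+CD8+ cells and 1.57 CPM in Thpok-RKF- CD8 SP cells. In that comparison 5 of the 8 genes had a positive difference and 3 a negative one, and 1, Dntt, passed. The part of immature cells in the Bcl2 and Pmaip1 values of the Thpok-RKF- CD8 SP cells was not tested.

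Bbc3 and Bad, the remaining BH3-only genes, passed no comparison with all libraries. Bbc3 stood at 37.2, 19.1 and 21.8 CPM in Thpok-RKF+ CD4+CD8+, 43.6, 27.8 and 29.5 in Thpok-RKF- CD4+CD8+, 27.8, 14.3 and 14.4 in Thpok-RKF- CD8 SP, 63.1, 20.7 and 14.4 in WT CD4 SP, and 27.7, 19.2 and 16.9 in WT CD8 SP libraries. The library numbered 1 was the highest of its group in all 5. Without these libraries Bbc3 was higher in Thpok-RKF- CD4+CD8+ than in Thpok-RKF- CD8 SP cells (1.01, adjusted p = 0.0317, against 0.84, 0.579, with them) and than in WT CD4 SP cells (0.71, 0.0378, against 0.041, 0.964, with them). Its difference of differences then passed too (1.01, 0.0454, against 0.21, 0.885, with them). Bad stood at 14.9, 28.3 and 27.1 CPM in Thpok-RKF+ CD4+CD8+, 16.8, 20.4 and 22.3 in Thpok-RKF- CD4+CD8+, 24.7, 23.7 and 26.8 in Thpok-RKF- CD8 SP, 23.1, 24.5 and 36.0 in WT CD4 SP, and 23.0, 28.0 and 32.9 in WT CD8 SP libraries. Its group means spanned 1.41-fold, the narrowest range of the 10 members, and each group overlapped its neighbour in the order of means. Of the bases of Bad exons, 20.5% also lie in Gpr137 on the other strand, and reads there cannot be told apart without a strand setting, which is not given in the sources used here.

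Of the effectors, Bax had its highest mean in WT CD4 SP cells. Levels of Bax were 54.5, 96.6 and 86.4 CPM in Thpok-RKF+ CD4+CD8+, 58.4, 53.5 and 54.2 in Thpok-RKF- CD4+CD8+, 67.4, 58.6 and 60.9 in Thpok-RKF- CD8 SP, 94.2, 93.6 and 96.0 in WT CD4 SP, and 65.8, 78.5 and 75.7 in WT CD8 SP libraries. All 6 Thpok-RKF- libraries were below all WT CD4 SP libraries, and the Thpok-RKF+ libraries split, with library 1 at the level of Thpok-RKF- cells and libraries 2 and 3 well above it. Bax fell by 0.77 ± 0.17 in Thpok-RKF- CD4+CD8+ against WT CD4 SP cells (1.71-fold lower, adjusted p = 0.00668) and passed in all 14 alternatives (adjusted p from 8.8e-05 to 0.0297). It fell by 0.60 ± 0.16 in Thpok-RKF- CD8 SP against WT CD4 SP cells (1.52-fold lower, adjusted p = 0.0216), which missed the threshold without Thpok-RKF- CD8 SP replicate 2 (-0.56, 0.0844) or 3 (-0.59, 0.0689), with adjusted p from 0.00227 to 0.0844 over 14 alternatives. Against WT CD8 SP cells, Bax in Thpok-RKF- CD8 SP cells passed without the libraries numbered 1 (-0.34, adjusted p = 0.0469, against -0.24 with them). Bax and Bcl2l11, both promoters of cell death, moved in opposite directions in both comparisons.

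Bak1 was nearly silent in these counts, with 2 to 47 reads per library. Its levels were 0.677, 0.475 and 0.474 CPM in Thpok-RKF+ CD4+CD8+, 0.733, 0.754 and 0.600 in Thpok-RKF- CD4+CD8+, 0.449, 0.173 and 0.290 in Thpok-RKF- CD8 SP, 0.274, 0.0414 and 1.05 in WT CD4 SP, and 1.25, 1.13 and 0.933 in WT CD8 SP libraries. The WT CD4 SP libraries were the most spread, from the lowest of all 15 to within the range of WT CD8 SP cells. The differences with WT CD8 SP cells were -1.85 ± 0.79 in Thpok-RKF- CD8 SP cells (95% interval -3.54 to -0.17, adjusted p = 0.127; -1.82, 0.0365, with only these groups in the fit, and -0.67, 0.0246, with limma on log2 of CPM plus 1) and -1.27 ± 0.77 in WT CD4 SP cells (adjusted p = 0.294). The WT difference was -2.76 without WT CD4 SP replicate 3 (adjusted p = 0.0301). Ggnbp1, on the other strand, shares 25.5% of the Bak1 exon bases.

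The effect of Thpok-RKF was compared directly between Thpok-RKF+ and Thpok-RKF- CD4+CD8+ cells, which have the same alleles and hosts otherwise. No member passed, 3 differences were positive and 7 negative, and the median was -0.21 log2 units, against 0.01 over all tested genes. Bcl2a1b was the only member whose groups did not overlap, where 16.4% of all genes did not. The intervals were 0.16 to 0.87 for Bax (difference 0.52, adjusted p = 0.176), -1.11 to 0.06 for Mcl1 (-0.53, adjusted p = 0.4), -1.25 to 0.28 for Bcl2l11 (-0.49, adjusted p = 0.567) and -0.69 to 0.36 for Bcl2 (-0.17, adjusted p = 0.813). Thpok-RKF+ CD4+CD8+ replicate 1 weighed heavily: without it Bcl2l11 was lower by -1.08 (adjusted p = 0.0424) and Bax higher by 0.72 (adjusted p = 0.00277), and 1673 genes passed in all, against 159 with it. Without all 5 libraries numbered 1, Bcl2 (-0.48, adjusted p = 0.0315) and Bax (0.76, adjusted p = 0.00452) passed. With all libraries, the quintile of tested genes with the longest exons, which holds Bcl2 and Bcl2l11, had a median of -0.10 here. The quintile that holds Bax had a median of 0.08.

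The libraries of compared groups often did not overlap where no call was made. Between Thpok-RKF- CD4+CD8+ and Thpok-RKF- CD8 SP cells 7 of 10 members did not overlap, against 21.1% of all tested genes: Bcl2, Mcl1, Bcl2a1b, Bbc3 and Bak1 were higher in the CD4+CD8+ libraries, and Bad and Bax lower. The median of the 10 differences was 0.43 log2 units, against 0 over all genes, and none passed the test. In the comparison of the WT groups 6 of 10 did not overlap (36.3% of all genes), and the median was -0.36 (CD4 SP over CD8 SP), against -0.03 over all genes. Elsewhere 3 of 10 did not overlap in Thpok-RKF- CD8 SP against WT CD8 SP cells (39.6%), and, against WT CD4 SP cells, 5 in Thpok-RKF- CD8 SP (37%), 5 in Thpok-RKF- CD4+CD8+ (38.4%) and 0 in Thpok-RKF+ CD4+CD8+ cells (21%).

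Ratios within a library do not depend on its depth. The ratio of Bcl2l11 to Bcl2, per kb of exon, was 0.338, 0.184 and 0.274 in Thpok-RKF+ CD4+CD8+, 0.492, 0.294 and 0.264 in Thpok-RKF- CD4+CD8+, 0.381, 0.439 and 0.394 in Thpok-RKF- CD8 SP, 0.125, 0.197 and 0.164 in WT CD4 SP, and 0.212, 0.185 and 0.147 in WT CD8 SP libraries. All 6 Thpok-RKF- libraries were above all 6 WT libraries. The geometric means were 0.404 in Thpok-RKF- CD8 SP, against 0.179 in WT CD8 SP and 0.159 in WT CD4 SP cells (log2 differences of 1.17 and 1.34). In Thpok-RKF- CD4+CD8+ cells the geometric mean was 0.337, against 0.159 in WT CD4 SP cells (log2 difference 1.08). Each of these had a two-sided exact permutation p = 0.1, the smallest that 3 against 3 libraries allow, and 0.2 after adjustment over 14 such tests. The ratio of Mcl1 to Bcl2 had geometric means of 7.90 in Thpok-RKF- CD8 SP and 6.97 in Thpok-RKF- CD4+CD8+ cells. It was 3.82 in WT CD4 SP cells and 3.40 in the WT CD8 SP group, again with no overlap between the Thpok-RKF- and WT libraries. The exact permutation p was 0.1 (0.2 adjusted) for each of the 3 comparisons made between them. In Thpok-RKF+ CD4+CD8+ cells the geometric mean was 5.37, against 6.97 in their Thpok-RKF- counterparts. These libraries did not overlap either (log2 difference -0.376, exact permutation p = 0.1, 0.2 adjusted). The other ratios computed were not tested, and their Thpok-RKF- and WT libraries overlapped when the groups of each kind were pooled. Bcl2l11 over Mcl1 was 0.041 to 0.063 in Thpok-RKF- and 0.0323 to 0.0587 in WT libraries. Bax over Bcl2 was 1.28 to 1.45 in Thpok-RKF- CD4+CD8+ and 2.08 to 2.34 in Thpok-RKF- CD8 SP libraries. It was 2.12 to 4.57 in WT CD4 SP and 1.0 to 1.53 in WT CD8 SP libraries. Thpok-RKF- CD4+CD8+ thus lay below WT CD4 SP, and Thpok-RKF- CD8 SP above WT CD8 SP, without overlap. Bcl2l1 over Bcl2 was 0.177 to 0.741 in Thpok-RKF- and 0.136 to 0.702 in WT libraries. At the same sort gate it did not overlap, with 0.336 to 0.741 in Thpok-RKF- CD8 SP and 0.136 to 0.26 in WT CD8 SP libraries.

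**Figure D3:**
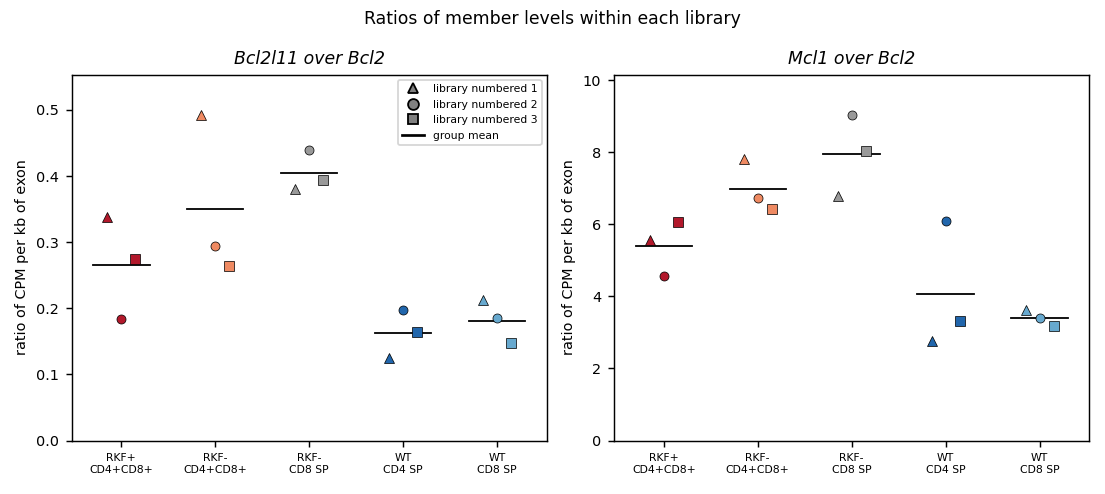
Ratio of Bcl2l11 to Bcl2 and of Mcl1 to Bcl2, each in CPM per kb of exon, in every library with the group mean as a line. The 6 Thpok-RKF- libraries lie at 0.264 to 0.492 for Bcl2l11 over Bcl2, above the 6 WT libraries at 0.125 to 0.212.

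The library number moved with several members. With the groups held in the model, libraries numbered 1 were higher than those numbered 2 and 3 for Bbc3 (log2 difference 1.00 ± 0.15, adjusted p = 0.00434), Bcl2l11 (0.69 ± 0.15, 0.0192) and Bcl2 (0.47 ± 0.11, 0.0204), and lower for Bcl2l1 (-0.61 ± 0.09, 0.00359). These 4 of 10 members compare with 9.32% of all genes. The number 1 libraries were the highest of their group for Bbc3 and Bcl2l11 in 5 of 5 groups and for Bcl2 in 4. Of 10 tested genes of a dissociation stress list, 5 were also higher in these libraries, Jun by 3.12, Hspa1a by 4.97, Hspa1b by 3.40, Dusp1 by 0.98 and Fos by 1.10 log2 units, and Egr1 was lower (-0.36). The sum of the 12 listed genes was lowest in library 1 of Thpok-RKF+ CD4+CD8+ (1335 against 1921 and 1746 CPM) and of WT CD8 SP cells (971 against 1179 and 1196 CPM) and highest in library 1 of the other 3 groups. Every group holds 1 such library, so the number is balanced over the comparisons, and what sets these libraries apart is not given in the labels. The share of reads assigned to no gene feature was highest in library 1 of every group. It was 5.09 to 7.74% in WT CD4 SP and 5.69 to 8.54% in WT CD8 SP libraries. In mutant libraries it was 7.23 to 9.93% in Thpok-RKF- CD8 SP, 8.32 to 9.83% in Thpok-RKF- CD4+CD8+ and 5.28 to 11.2% in Thpok-RKF+ CD4+CD8+. This share was thus not balanced over the groups, and its part in the member differences was not tested.

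**Figure D4:**
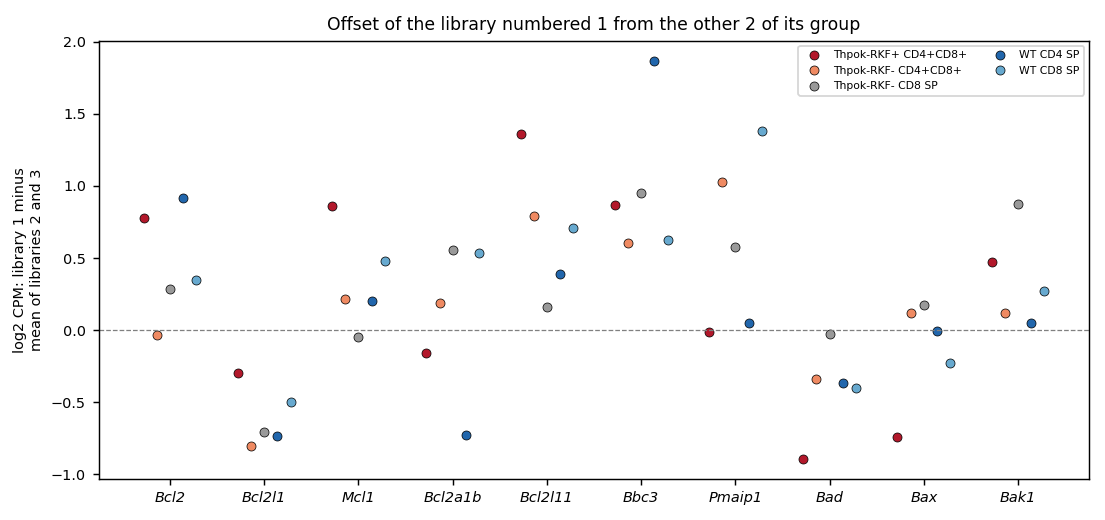
Difference in log2 CPM between the library numbered 1 and the mean of those numbered 2 and 3, for each member and group. All 5 points lie above 0 for Bcl2l11 and Bbc3 and below 0 for Bcl2l1.

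Exon length also moved with several comparisons, among them those that involve WT CD4 SP cells. Bcl2 (9157 bases) and Bcl2l11 (8029 bases) belong to the quintile of tested genes with the longest exons, Mcl1 (3418 bases) to the middle quintile, and Bax (1576 bases) to the next to shortest. In Thpok-RKF- CD4+CD8+ against WT CD4 SP cells the median log2 fold change was 0.20 over the longest quintile and -0.12 over the next to shortest. For the WT groups (CD4 SP over CD8 SP) the longest quintile had a median of -0.12 and the shortest of 0.02. When the trend on exon length was removed library by library, Bcl2l11 and Mcl1 rose by 1.41 and 1.32 and Bax fell by 0.69 in Thpok-RKF- CD4+CD8+ against WT CD4 SP cells (adjusted p = 0.00847, 0.00738 and 0.00894). All 13 calls on members in the reported fit passed with that trend removed.

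**Figure D5:**
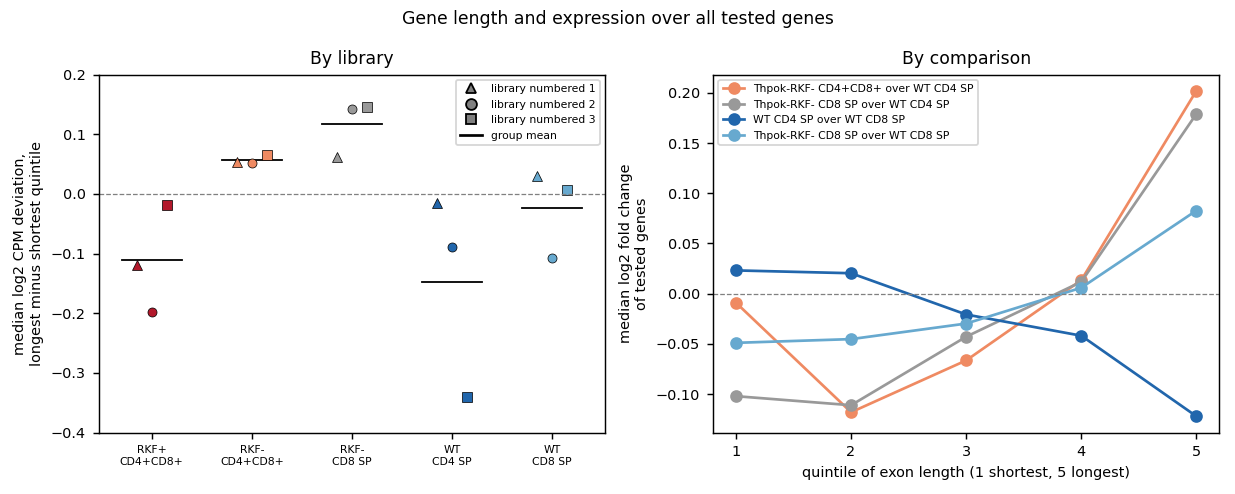
Left, the median log2 deviation of the longest minus the shortest quintile of tested genes in each library; right, the median log2 fold change by quintile of exon length in 4 comparisons. WT CD4 SP library 3 is lowest at -0.34, and the longest quintile has a median of 0.20 in Thpok-RKF- CD4+CD8+ over WT CD4 SP cells.

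Of 15 other BCL2 family genes, 10 were tested. Of these, 2 rose and 2 fell in WT CD4 SP against WT CD8 SP cells, where 18% of all tested genes passed. The rises were Bcl2a1d (5.92 against 1.98 CPM, log2 1.58) and the mitophagy receptor Bnip3l (281 against 204 CPM, 0.46). The falls were Bid, the BH3-only link from death receptors (34.7 against 66.2 CPM, -0.93), and Bcl2l13 (53.8 against 78.4 CPM, -0.54). The BH3-only gene Bmf rose in Thpok-RKF- CD8 SP against WT CD4 SP cells (23.5 against 0.701 CPM). In that comparison 2 of the list rose and 2 fell, and 17.7% of all tested genes passed. The BH3-only gene Bik rose in Thpok-RKF+ CD4+CD8+ against WT CD4 SP cells (3.81 against 0.0919 CPM, log2 5.31, adjusted p = 0.00128), with Bid (63.4 against 34.7 CPM, 0.87). Bcl2l14 rose (3.52 against 0.86 CPM, 2.03) and Bid fell (38.3 against 66.2 CPM, -0.79) in Thpok-RKF- CD8 SP against WT CD8 SP cells. None passed in the comparisons among mutant groups.

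Downstream of the mitochondrion, 16 genes of the caspase route were tested. Of these, 2 rose and 4 fell in WT CD4 SP against WT CD8 SP cells, where 18% of all tested genes passed. Diablo, which blocks caspase inhibitors, was higher (16.0 against 10.1 CPM, log2 0.67), and the channel gene Vdac1 (42.1 against 101 CPM, -1.26) was lower. In Thpok-RKF- CD8 SP against WT CD8 SP cells 2 rose and 5 fell (18.4% of all tested genes passed). Diablo was among the rises (16.7 against 10.1 CPM). In Thpok-RKF- CD4+CD8+ against WT CD4 SP cells 2 rose and 4 fell (17.6% of all tested genes passed). Falls in the mitochondrial proteins Endog (5.50 against 12.5 CPM, -1.18) and Htra2 (19.0 against 35.2 CPM, -0.89) led these.

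The 5 inhibitor-of-apoptosis genes differed among themselves. In WT CD4 SP against WT CD8 SP cells Birc3 (166 against 73.8 CPM, log2 1.17) and Birc2 (146 against 103 CPM, 0.50) rose, and Birc5, the mitotic gene survivin, fell (18.1 against 70.0 CPM, -1.95). Birc5 also rose in Thpok-RKF- CD4+CD8+ against Thpok-RKF- CD8 SP cells (28.1 against 3.03 CPM, 3.21) and fell in Thpok-RKF- CD8 SP against WT CD8 SP cells (3.03 against 70.0 CPM, -4.53). Birc6 (167 against 78.9 CPM, 1.08) and Xiap (17.0 against 9.70 CPM, 0.81) rose in Thpok-RKF- CD4+CD8+ against WT CD4 SP cells.

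A list of 29 genes stood for signalling related to T cell survival. They included receptors for interleukins, their kinases and the transcription factors downstream, but also Nr4a1, Nr4a3, Nr3c1, Huwe1, Usp9x, Fbxw7 and Ywhaz. A rise within the list therefore need not mean a survival signal. Pim1, a survival kinase induced by cytokines, was at 10.7 ± 0.314 CPM in Thpok-RKF+ CD4+CD8+, 29.9 ± 1.52 in Thpok-RKF- CD4+CD8+, 46.1 ± 6.48 in Thpok-RKF- CD8 SP, 3.75 ± 1.61 in WT CD4 SP cells and 2.78 ± 0.500 in the WT CD8 SP group (SD, n = 3). It rose by 2.99 on the log2 scale in Thpok-RKF- CD4+CD8+ against WT CD4 SP cells (adjusted p = 4.2e-06) and by 4.05 in Thpok-RKF- CD8 SP against WT CD8 SP cells (3.14e-07). In Thpok-RKF+ CD4+CD8+ cells it fell by 1.48 against their Thpok-RKF- counterparts (adjusted p = 0.0114). Nr4a1, an early target of T cell receptor signals, rose there (334 against 133 CPM, 1.33, adjusted p = 0.0476). These were the only 2 of the 29 to pass in that comparison, where 0.961% of all tested genes passed. Il2rb, the shared receptor chain for interleukins 2 and 15, rose in Thpok-RKF- CD4+CD8+ (370 against 136 CPM) and in Thpok-RKF+ CD4+CD8+ against WT CD4 SP cells (430 against 136 CPM). In WT CD4 SP against WT CD8 SP cells 4 of the 29 rose and 4 fell, where 18% of all tested genes passed. Among the rises were Nr4a1 (309 against 72.7 CPM, 2.09), Tcf7 (0.50) and Nr3c1 (0.50), and among the falls Il2rb (136 against 597 CPM, -2.13).

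For each member whose group means spanned at least 1 log2 unit, the genes with the most similar pattern were sought by the root mean square difference in centred log2 CPM over the 15 libraries. For Mcl1, whose own SD over libraries was 0.57, these were Trim25 (0.13), Prdm2 (0.15) and Mtor (0.15) of 8339 genes. For Bcl2l11, with an SD of 0.70, they were Tnrc18 (0.17), Mideas (0.20) and Mast3 (0.23). For Bcl2a1b (SD 0.60) they were Phf11b (0.29), Zbtb38 (0.31) and Cd6 (0.31). For Pmaip1 (SD 1.07) and Bak1 (SD 1.04) the nearest genes, Cdc25b (0.58) and Cotl1 (0.69), were farther away in log2 units. Bcl2a1b, Pmaip1 and Bak1 had few reads, whereas the genes searched had a mean log2 CPM of at least 3. The part of count noise in these distances was not tested.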

How the data were processed

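RNA came from an RNeasy Plus Micro kit and went into SMARTer Ultra Low Input libraries, sequenced as paired reads of 101 bp (NovaSeq), per the labels' protocols. HTSeq, STAR, DESeq2, Trimmomatic, bcl2fastq 2.17 and build mm39 appear in the submitters' processing notes; roles, other versions, annotation and strand setting were not given in the sources used here. Raw read counts were deposited for each gene, identical in the tables of single libraries and of the whole series for 15 of 15 libraries. They also deposited normalised values (FPM), which are CPM scaled by the gene total: 100% scaled back to whole reads (tolerance 0.01). In each table of the whole series 3 columns match no sample and were not used, and 5 summary lines per library were left out. Levels per kb and shared stretches use GENCODE M21, and promoter windows RefSeq, both on GRCm38 and not the build of the counts, so symbols and not coordinates were matched.

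Counts were analysed with edgeR 4.0.16 (R 4.3.3): TMM scaling, the low-count filter of edgeR (a CPM worth 10 counts at median depth in enough libraries, and 15 counts in total, leaving 16550 of 53762 genes), 1 model of group means over all 15 libraries and the quasi-likelihood F test with Benjamini-Hochberg adjustment over all tested genes at 0.05. SE is the log2 fold change over the square root of F. Printed levels are CPM after TMM scaling, mean ± SD. Alternatives were no low-count filter, relative log expression size factors, DESeq2 1.42.0, limma 3.58.1 on log2 of the deposited CPM plus 1, only the compared groups, the replicate number as a block, each library left out, no libraries numbered 1, and summed Bcl2a1 genes. Removal of an exon length trend (lowess of log2 CPM per library, for the 96.7% of genes with a length) was chosen after seeing the data. The fit was tested on simulated data. The members, lists, comparisons and alternatives were chosen with earlier results of these data known. All members were named, and up to 4 genes of each other list by adjusted p in the comparison of WT groups and in that of Thpok-RKF+ with Thpok-RKF- cells, up to 2 elsewhere, less some genes that are not reported here; single genes of the marker and stress lists and the Bcl2a1 paralogs were named after their values were seen.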

Additional observations from a re-analysis of the deposited data

Results flagged for a closer look

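For 2 members the change between mutant populations differed from that between WT populations in a direct test (edgeR interaction contrast, all 15 libraries). The contrast is Thpok-RKF- CD4+CD8+ minus Thpok-RKF- CD8 SP, less WT CD4 SP minus WT CD8 SP. Bcl2 had a log2 difference of differences of 1.397 (adjusted p = 0.016): Thpok-RKF- CD4+CD8+ cells averaged 238 CPM against 166 CPM in Thpok-RKF- CD8 SP cells, and WT CD4 SP cells 178 CPM against 326.5 CPM in WT CD8 SP cells. Pmaip1 had one of 3.193 (adjusted p = 0.0191): the means were 2.57 CPM in Thpok-RKF- CD4+CD8+ and 0.720 CPM in Thpok-RKF- CD8 SP cells, and 1.66 CPM in WT CD4 SP and 4.27 CPM in WT CD8 SP cells. The mutant pair shares its host type and the WT pair does not, so host and population cannot be told apart in this contrast. All 8 genes of the cell cycle list also passed as rises in it, with a median of 3.5 log2 units, against 0.04 over all genes. The part of dividing cells in the 2 flagged values was not tested. No outlier test was made within the groups of 3 libraries, but each library was left out in turn.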

How the results depend on the processing

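None of the 13 calls on members reversed under any alternative, and over all 80 member values, 1075 of 1188 alternative values kept their direction and side of the threshold. The number of members called moved as follows. With only the compared groups in the fit it was 1 for the WT groups (2 in the reported fit), 1 for Thpok-RKF- CD4+CD8+ against Thpok-RKF- CD8 SP (0) and 4 for the difference of differences (2). With DESeq2 it was 1 for Thpok-RKF- CD4+CD8+ against Thpok-RKF- CD8 SP, 1 for Thpok-RKF+ CD4+CD8+ against WT CD4 SP (0) and 4 for the difference of differences. With no low-count filter the last 2 were 2 and 4. Without the 5 libraries numbered 1 it was 2 for Thpok-RKF+ against Thpok-RKF- CD4+CD8+ (0), 2 for Thpok-RKF- CD4+CD8+ against Thpok-RKF- CD8 SP and 5 for Thpok-RKF- CD4+CD8+ against WT CD4 SP (3). Leaving out 1 library at a time gave 0 to 2 for the WT groups, 0 to 2 for Thpok-RKF+ against Thpok-RKF- CD4+CD8+, 1 to 2 for Thpok-RKF- CD8 SP against WT CD8 SP, 0 to 3 for Thpok-RKF- CD8 SP against WT CD4 SP (4), 0 to 1 for Thpok-RKF+ CD4+CD8+ against WT CD4 SP and 1 to 3 for the difference of differences.

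Libraries with the same number correlated at -0.05 to 0.221 over genes and in no comparison were all 3 numbers above 0.1, so the numbers were not taken as pairs. Those numbered 1 correlated at 0.137, 0.221 and 0.146 in 3 comparisons and number 1 had number 1 as its best match in 5 of 7. In Thpok-RKF- CD8 SP against WT CD8 SP cells every number had its own number as best match (0.146, 0.0142 and 0.0961). Some pairing by number is therefore not excluded. With the replicate number as a block 1 member passed for Thpok-RKF+ CD4+CD8+ against WT CD4 SP, 4 passed for the difference of differences, and Bcl2l1 reversed to 0.00997 in Thpok-RKF+ CD4+CD8+ cells against Thpok-RKF- ones.

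Differences that changed sign were all short of the threshold, and the cause was not tested. Between the WT groups (CD4 SP over CD8 SP), Bad (-0.0043) was 0.014 with relative log expression, 0.014 with DESeq2, 0.030 with only the compared groups, 0.020 without the libraries numbered 1 and 0.0063 with the length trend removed, and Bbc3 (0.62) was -0.0040 without those numbered 1. Without these libraries, Pmaip1 was 0.072 in Thpok-RKF+ against Thpok-RKF- CD4+CD8+, Bcl2 0.15 in Thpok-RKF- CD8 SP against WT CD4 SP (0.017 with limma), and Bbc3 0.22 and Bak1 -0.18 in Thpok-RKF+ CD4+CD8+ against WT CD4 SP. With 1 library left out, the ranges were as follows. The WT groups gave -0.024 to 0.35 for Bcl2l1, -0.25 to 1.01 for Bbc3 and -0.19 to 0.14 for Bad. Thpok-RKF+ against Thpok-RKF- CD4+CD8+ gave -0.26 to 0.12 for Bcl2l1 and -0.67 to 0.035 for Pmaip1. Thpok-RKF- CD4+CD8+ against Thpok-RKF- CD8 SP gave -0.0024 to 0.46 for Bcl2l11. Thpok-RKF- CD8 SP against WT CD8 SP gave -0.025 to 0.43 for Bcl2l11 and -0.55 to 0.064 for Bbc3. Thpok-RKF- CD8 SP against WT CD4 SP gave -0.34 to 0.24 for Bcl2, -1.21 to 0.078 for Bbc3, -0.29 to 0.043 for Bad and -1.13 to 0.91 for Bak1. Thpok-RKF- CD4+CD8+ against WT CD4 SP gave -0.43 to 0.0080 for Bcl2l1 and -0.34 to 0.92 for Bbc3. Thpok-RKF+ CD4+CD8+ against WT CD4 SP gave -0.054 to 0.61 for Bcl2, -0.71 to 0.56 for Bbc3 and -0.29 to 1.75 for Bak1. The difference of differences gave -0.17 to 1.09 for Bbc3.

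Counts over all genes moved by over 1.5 times in some comparisons. For Thpok-RKF+ against Thpok-RKF- CD4+CD8+ the 159 genes became 428 with no filter, 676 with DESeq2, 287 with limma, 48 with only these groups, 1741 without the libraries numbered 1, and 48 to 1673 with 1 library left out. For Thpok-RKF- CD4+CD8+ against Thpok-RKF- CD8 SP, 403 became 782 with DESeq2 and 230 to 324 with 1 library left out. For Thpok-RKF+ CD4+CD8+ against WT CD4 SP, 1202 became 1946 with DESeq2 and 524 with only these groups. With 1 library left out, 2922 became 1673 to 2743 for Thpok-RKF- CD8 SP and 2908 became 1530 to 2697 for Thpok-RKF- CD4+CD8+ against WT CD4 SP. Bcl2a1b, Bak1 and Pmaip1 had few reads, and their depth limits what could be detected.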
